A study of Mus musculus with 12 samples.

Results

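The genes described here are 36 genes that mouse cells use against shortage of amino acids and against unfolded proteins. They were chosen by name from these pathways, with earlier results of these data already known. They form an ATF4 arm of 22 genes and an endoplasmic reticulum (ER) arm of 14. All 36 were found by symbol among the 37991 gene identifiers measured, and all 36 passed the filter on low counts. Their RNA was measured in mouse embryonic fibroblasts, the matrix-making cells that grow out when embryo tissue is cultured, with 3 libraries from each of 4 genotypes. The groups are wild type (WT), the single knockouts of Ing1 (Ing1 KO) and of Gadd45a (Gadd45a KO), and the double knockout of both genes (DKO, Gadd45a-/-;Ing1-/-). Both knockouts are whole-animal alleles, and mice lacking either gene were crossed to give the embryos. Every group shared strain (C57BL/6N), sex (male), stage (E15.5) and passage (4), no treatment is named, and all cells were harvested at 80% confluency. Whether a group's 3 libraries stem from different embryos or cultures is not stated, so p-values measure the spread between libraries, which may be technical.

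When amino acids run short, or when unfolded proteins gather in the ER, sensor kinases phosphorylate the translation factor eIF2, and the RNA of the transcription factor ATF4 is then translated more. ATF4 raises genes for amino acid synthesis and uptake and, under lasting stress, for the factor CHOP (gene Ddit3), partly through a DNA element shared by C/EBP and ATF proteins. Unfolded ER proteins also activate ATF6 and XBP1, which raise chaperones and degradation factors through ER stress elements. ATF4 itself is controlled mostly by translation, so its RNA level is an incomplete reading of its activity.

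The sequences before the transcription starts are shown because they hold these elements, which were read independently of the libraries. RefSeq windows (GRCm38.p6, 250 bases before to 50 after each start) were at hand for 31 of the 36 genes, and 3 motifs were searched on both strands. The C/EBP-ATF element, spelled TGATGNAAN, was in windows of 7 of 19 ATF4 arm genes (Asns, Atf3, Chac1, Nupr1, Pycr1, Slc7a11 and Trib3) and of 1 of 12 ER arm genes, Herpud1. It was in 3.95% of all 32851 windows. The ER stress element, CCAAT and CCACG with 9 bases of any kind between them, was in windows of 5 of 12 ER arm genes (Calr, Creld2, Hsp90b1, Hspa5 and Pdia6), of 0 of 19 ATF4 arm genes and in 0.119% of all windows. The shorter ER stress element II, ATTGG and CCACG with 1 base between them, was found in Herpud1 and in 0.0365% of all windows. No match of one motif overlapped a match of another in the members' windows. A match describes letters in a window and is not evidence of a bound site. The 250 bases before the start are printed 5′ to 3′ for 4 ATF4 arm genes, for Herpud1, which held a C/EBP-ATF element and an ER stress element II, and for 2 chaperones. Capitals mark the fixed letters of a motif, read on either strand.
Asns, chr6:7693210-7693459, minus strand: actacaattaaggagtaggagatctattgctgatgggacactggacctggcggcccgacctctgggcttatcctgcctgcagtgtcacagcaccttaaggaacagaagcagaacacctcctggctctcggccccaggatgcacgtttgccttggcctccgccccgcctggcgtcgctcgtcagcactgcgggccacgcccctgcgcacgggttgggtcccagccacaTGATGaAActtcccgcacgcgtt
Chac1, chr2:119350992-119351241, plus strand: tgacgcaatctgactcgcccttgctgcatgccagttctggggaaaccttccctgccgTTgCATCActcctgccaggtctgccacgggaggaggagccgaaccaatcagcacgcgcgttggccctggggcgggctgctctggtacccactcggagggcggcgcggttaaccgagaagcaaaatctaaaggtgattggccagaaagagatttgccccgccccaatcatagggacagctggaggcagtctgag
Nupr1, chr7:126625471-126625720, minus strand: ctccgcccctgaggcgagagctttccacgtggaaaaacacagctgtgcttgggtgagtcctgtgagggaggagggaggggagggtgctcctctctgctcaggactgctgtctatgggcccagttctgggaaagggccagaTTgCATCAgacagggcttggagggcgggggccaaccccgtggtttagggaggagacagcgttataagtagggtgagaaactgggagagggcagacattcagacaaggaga
Atf3, chr1:191183334-191183583, minus strand: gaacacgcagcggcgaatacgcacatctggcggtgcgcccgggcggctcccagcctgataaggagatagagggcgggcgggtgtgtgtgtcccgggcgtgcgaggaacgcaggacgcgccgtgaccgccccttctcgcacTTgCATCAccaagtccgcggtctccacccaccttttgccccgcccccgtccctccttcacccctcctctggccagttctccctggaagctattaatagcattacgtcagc
Herpud1, chr8:94386179-94386428, plus strand: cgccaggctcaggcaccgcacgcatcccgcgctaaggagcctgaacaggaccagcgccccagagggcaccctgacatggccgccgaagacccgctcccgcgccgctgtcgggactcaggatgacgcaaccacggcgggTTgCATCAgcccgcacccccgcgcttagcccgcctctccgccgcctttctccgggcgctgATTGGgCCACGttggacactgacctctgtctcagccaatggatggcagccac
Hspa5, chr2:34771840-34772089, plus strand: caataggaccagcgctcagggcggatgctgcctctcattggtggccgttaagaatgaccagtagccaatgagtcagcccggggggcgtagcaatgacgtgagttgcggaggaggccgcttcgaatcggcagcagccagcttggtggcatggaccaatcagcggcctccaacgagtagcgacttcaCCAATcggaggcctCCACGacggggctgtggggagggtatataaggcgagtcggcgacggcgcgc
Hsp90b1, chr10:86705445-86705694, minus strand: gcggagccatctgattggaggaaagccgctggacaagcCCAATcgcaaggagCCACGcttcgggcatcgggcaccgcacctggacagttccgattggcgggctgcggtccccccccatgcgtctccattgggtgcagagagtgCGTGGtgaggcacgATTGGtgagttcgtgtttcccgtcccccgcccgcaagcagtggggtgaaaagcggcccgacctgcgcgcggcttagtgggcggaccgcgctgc
In Asns the element started 23 bases before the transcription start, and in Nupr1 and Atf3 it started 111 bases before it. Trib3 held its match after the start, beginning at base 14, so its upstream sequence is not printed.

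Total gene counts ran from 31493168 to 42852059 per library, and the lowest count of any member in any library was 166. Ing1 was at 52.3 ± 2 CPM (counts scaled to library size) in WT libraries and 52.1 ± 2.4 in Gadd45a KO, against 1.22 ± 0.2 CPM in Ing1 KO and 1.12 ± 0.19 CPM in DKO (SD, n = 3 each). Gadd45a went against its labels: its level was 21.1 ± 0.2 CPM in WT libraries, 18.4 ± 1.9 in Ing1 KO, and 99.9 ± 22 and 126 ± 6.3 CPM in the libraries labelled Gadd45a KO and DKO (SD, n = 3 each). Which part of Gadd45a was deleted is not stated in the labels, and counts from outside it check nothing. The names Gadd45a KO and DKO therefore mean the libraries labelled so throughout. Summed markers of fibroblasts (9 genes) were high in every library, between 51867 and 68338 CPM, and those of epithelium and endothelium stayed under 7 CPM. Muscle markers, mainly Des and Acta1, summed to between 47.6 and 132 CPM, and no marker of any list had a count of 0 in every library. Summed markers of macrophages (15 genes) ran from 268 to 456 CPM in the WT, 359 to 627 in Ing1 KO, 141 to 554 in Gadd45a KO and 2228 to 2779 in DKO, where 15 of 15 were called higher than in the WT. Fibroblast marker sums in DKO (56717 to 62693 CPM) lay within the range of the other groups, but sums do not show single markers. Against the WT, 1 of 9 was called lower in DKO (11.1%, beside 10.3% of all genes tested) and 0 higher (beside 15.6%). In Ing1 KO 3 were called lower and 2 higher (33.3% and 22.2%, beside 11.4% and 12.1%). The part of macrophage and fibroblast markers in the DKO results below was not tested. In bulk RNA, fewer cells of a type and less RNA per cell cannot be told apart.

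Per kilobase of exon in the WT, the ER chaperones led the set: Calr, a calcium-binding chaperone, stood at 539 CPM per kilobase, Hspa5 (BiP) at 318 and Hsp90b1 (GRP94) at 308. Atf5 and Atf4 were the highest of the ATF4 arm, at 133 and 128 CPM per kilobase. Atf3 and the cystine transporter gene Slc7a11 were lowest, at 2.61 and 0.738 CPM per kilobase. The length used is the union of a gene's annotated exons, 13922 bases for Slc7a11 and 2154 for Atf3, and the ranks depend on it. In plain CPM Slc7a11 (10.3) stood above Atf3 (5.62) in the WT. The median per kilobase was 29.3 in the ATF4 arm and 43.5 in the ER arm.

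**Figure D1:**
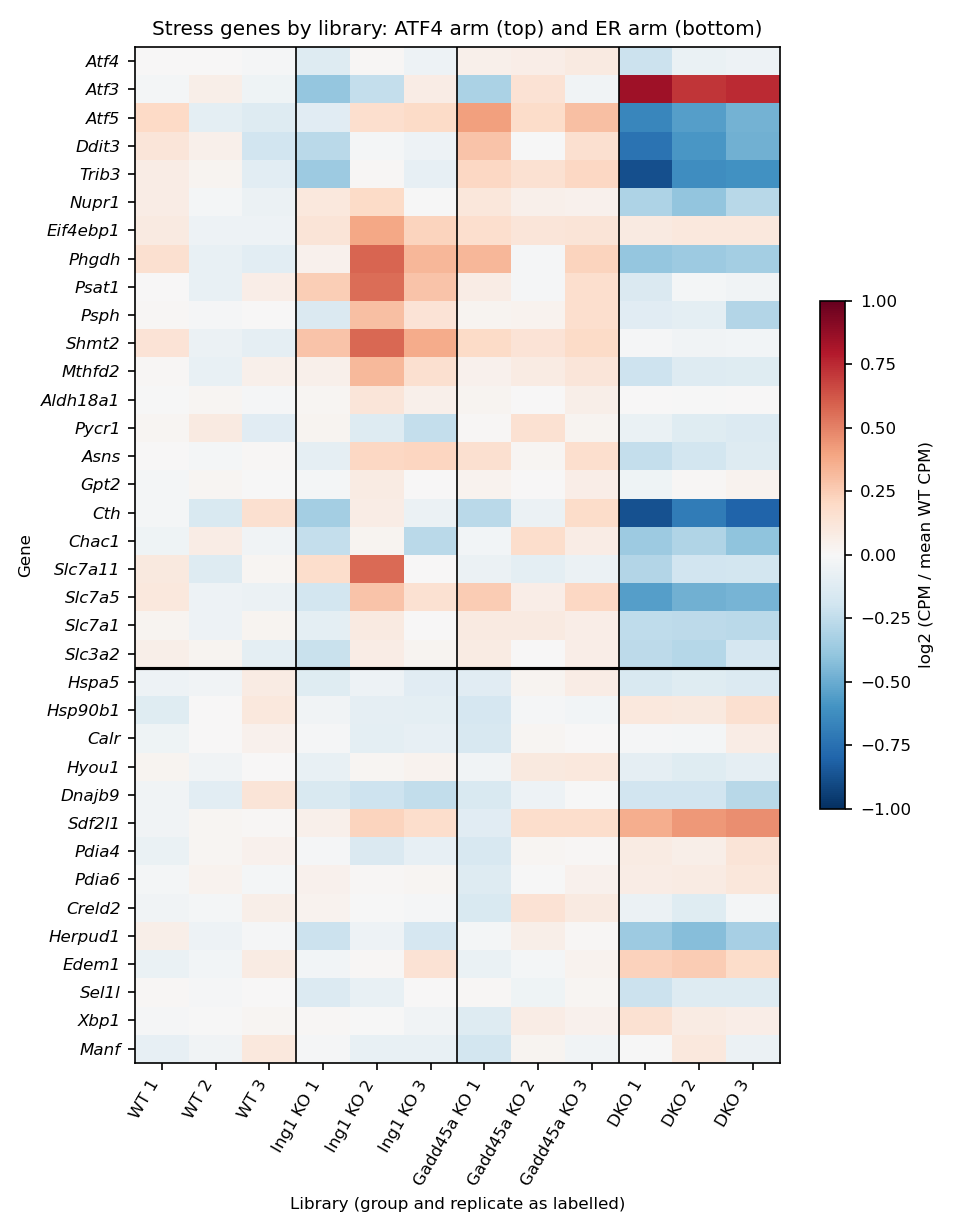
Colour gives log2 of the CPM in each of the 12 libraries (columns) over the mean WT CPM, for 22 ATF4 arm genes (above the thick line) and 14 ER arm genes (below it). Blue runs through much of the ATF4 arm in the 3 DKO libraries, with Atf3 in red, while most of the ER arm is pale; Sdf2l1 and Edem1 are red and Herpud1 and Dnajb9 blue there.

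In DKO a large part of the ATF4 arm was lower than in the WT, and the calls in the ER arm were divided. Of 22 ATF4 arm genes, 9 fell, 1 rose (Atf3) and 12 were not called, with a median log2 fold change of -0.21. Of 14 ER arm genes, 3 fell, 2 rose and 9 were not called, with a median of 0.02. A gene is called when its adjusted p in edgeR's quasi-likelihood test is under 0.05, and 10.3% of the 15098 genes tested were called lower and 15.6% higher, with a median of 0.01. The ATF4 arm's share of lower calls (40.9%) stood above this background and the ER arm's (21.4%) rested on 3 genes. The mean log2 level of the ATF4 arm, relative to the WT mean, was -0.25, -0.21 and -0.2 in the DKO libraries and 0.05, -0.02 and -0.03 in the WT. That of the ER arm was -0.01, 0 and 0.01 in DKO and -0.03, -0.02 and 0.05 in the WT. The DKO libraries thus lay below all 9 others for the ATF4 arm and inside the WT range for the ER arm.

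**Figure D2:**
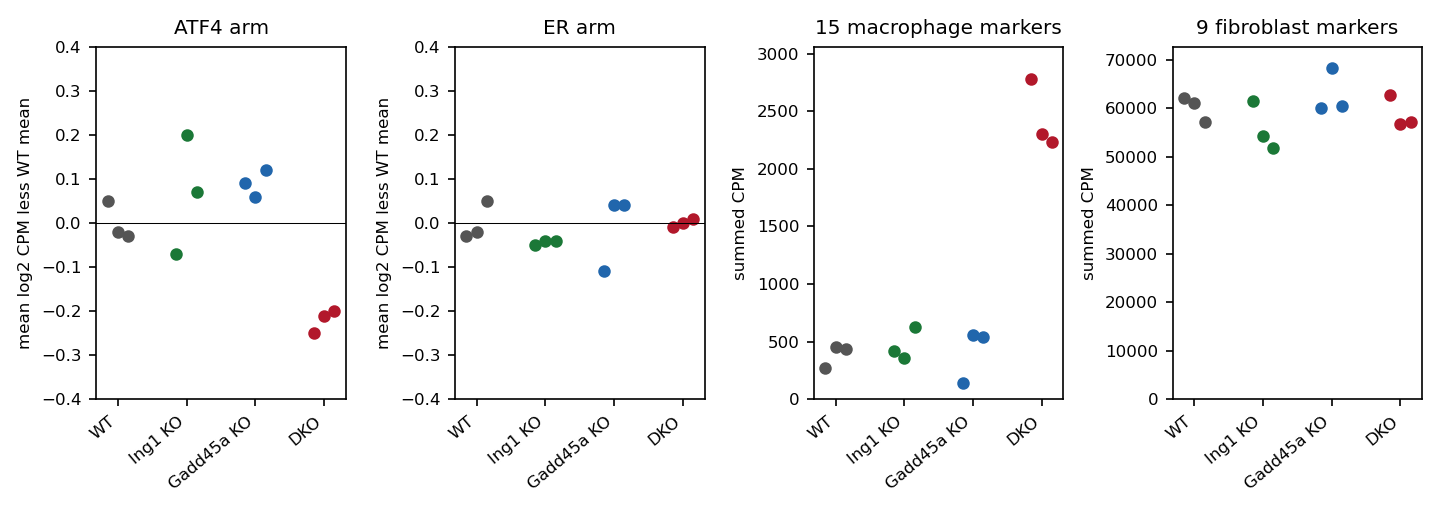
Points are libraries, coloured by group. The first 2 panels give the mean log2 CPM of each arm less the WT mean, the other panels the summed CPM of 15 macrophage and 9 fibroblast markers. DKO is lowest in the ATF4 arm (-0.25 to -0.2) and highest in macrophage markers (2228 to 2779 CPM).

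Among the transcription factors and regulators, Atf4 itself kept within a narrow range. It stood at 302, 302 and 299 CPM in WT replicates 1 to 3, at 275, 303 and 290 in Ing1 KO, at 312, 316 and 321 in Gadd45a KO, and at 260, 288 and 291 in DKO. The DKO libraries lay below those of the WT and of Gadd45a KO and overlapped Ing1 KO. Atf4 was called in a single comparison, DKO against Gadd45a KO, with a log2 fold change of -0.18 ± 0.05 (SE, adjusted p = 0.016 by edgeR), and that call was lost without Gadd45a KO replicate 3 or DKO replicate 1 (adjusted p up to 0.0806 over the alternatives run). Against the WT its value was -0.11 ± 0.05 (edgeR adjusted p = 0.124).

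Ddit3, which encodes the stress factor CHOP, fell in DKO against each other group. Its level was 71, 67.8 and 57.2 CPM in the WT, 54.2, 64.4 and 63 in Ing1 KO, 79.7, 65.1 and 73 in Gadd45a KO, and 39.1, 43.7 and 46.9 in DKO. No DKO library reached the lowest of the other 9. The log2 fold change against the WT was -0.6 ± 0.1 (SE, adjusted p = 0.00193 by edgeR), or 1.51-fold lower. Ddit3 shares 68 exon bases with Mars on the opposite strand, and the library kit does not mark strand.

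Trib3, a pseudokinase gene induced by CHOP and ATF4, fell further. It stood at 91.9, 89 and 81.1 CPM in the WT, 67.8, 88.2 and 82.6 in Ing1 KO, 101, 97.1 and 101 in Gadd45a KO, and 47.5, 56.8 and 57.5 in DKO. Again the DKO libraries lay below all others, and Ing1 KO replicate 1 was the lowest of the rest. Against the WT it was 1.62-fold lower in DKO (log2 fold change -0.7 ± 0.1 SE, adjusted p = 0.000494 by edgeR).

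Atf5, an ATF4-related factor whose RNA is also under translational control, stood at 305, 248 and 242 CPM in the WT, 245, 297 and 303 in Ing1 KO, 352, 301 and 327 in Gadd45a KO, and 169, 181 and 191 in DKO. The DKO libraries did not overlap any other group, and the log2 fold change against the WT was -0.55 ± 0.1 (SE, adjusted p = 0.00286 by edgeR). Atf5 shares 82 exon bases with Il4i1 on the opposite strand. Nupr1, a small chromatin-associated stress protein, stood at 68.8, 64.5 and 62.8 CPM in the WT, 70.2, 74.6 and 65.2 in Ing1 KO, 70.7, 67.6 and 67.4 in Gadd45a KO, and 52.9, 49.6 and 54 in DKO. It too lay below every other library in DKO, with a log2 fold change against the WT of -0.33 ± 0.06 (SE, adjusted p = 0.00115 by edgeR).

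Atf3, an early stress and immune response factor, went the other way. Its level was 5.55, 5.85 and 5.44 CPM in the WT, 4.29, 4.77 and 5.9 in Ing1 KO, 4.5, 6.2 and 5.49 in Gadd45a KO, and 10.1, 9.19 and 9.44 in DKO. Every DKO library lay above the other 9, and Atf3 rose 1.7-fold against the WT (log2 fold change 0.77 ± 0.13 SE, adjusted p = 0.00107 by edgeR). Within groups, the library with the highest macrophage marker sum was also the highest for Atf3 in 4 of 4 groups: WT replicate 2 (456 CPM of markers), Ing1 KO replicate 3 (627), Gadd45a KO replicate 2 (554) and DKO replicate 1 (2779). The library with the lowest sum was the lowest for Atf3 in 1 of 4 groups, Gadd45a KO. The highest and next marker sums lay close in the WT (456 and 433 CPM) and in Gadd45a KO (554 and 541). Atf3 alone was ranked in this way, so these matches have no background beside them. The part of macrophage markers in the rise of Atf3 was not tested.

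**Figure D3:**
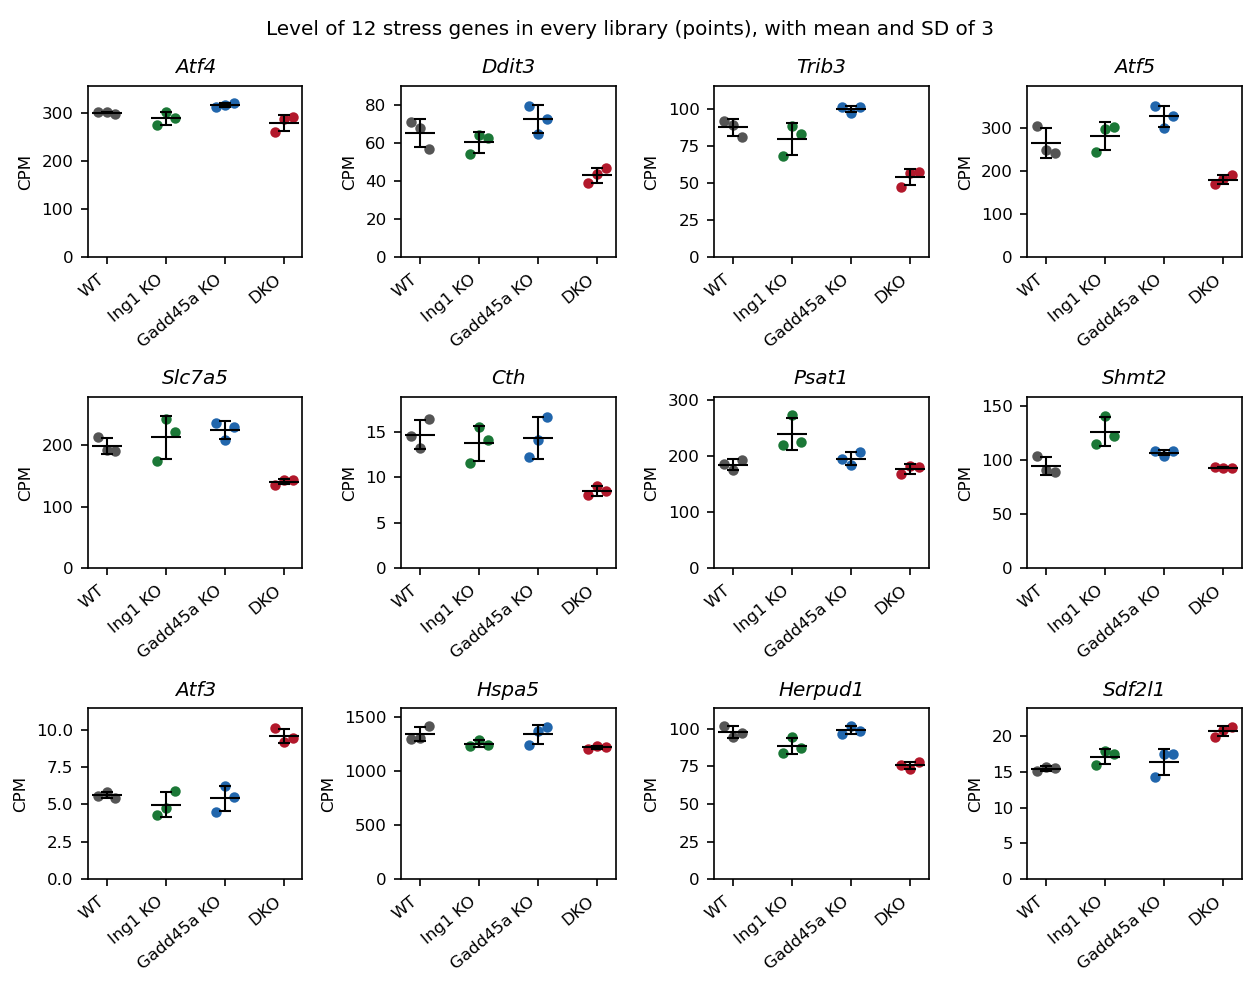
CPM of 12 genes in every library (points), with the mean and SD of the 3 libraries of a group; every axis starts at 0. Ddit3, Trib3, Atf5, Slc7a5, Cth and Herpud1 are lowest in DKO, Atf3 and Sdf2l1 highest, and Psat1 and Shmt2 highest in Ing1 KO.

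Of the 4 amino acid transporter genes 3 fell in DKO against the WT, where 10.3% of all genes tested were called lower. The largest fall was that of Slc7a5. This gene encodes the light chain of the LAT1 transporter for large neutral amino acids, which pairs with the heavy chain made from Slc3a2. Slc7a5 stood at 214, 192 and 191 CPM in the WT, 175, 243 and 221 in Ing1 KO, 237, 208 and 230 in Gadd45a KO, and 136, 143 and 144 in DKO. All DKO libraries were below the others, and the log2 fold change against the WT was -0.49 ± 0.1 (SE, adjusted p = 0.00435 by edgeR). The arginine and lysine transporter gene Slc7a1 stood at 111, 105 and 111 CPM in the WT, 102, 116 and 109 in Ing1 KO, 116, 116 and 114 in Gadd45a KO, and 91.3, 90.7 and 90.2 in DKO. It was below every other library in DKO with little spread, at a log2 fold change of -0.26 ± 0.05 (SE, adjusted p = 0.00122 by edgeR).

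Slc3a2 stood at 194, 190 and 174 CPM in the WT, 159, 196 and 190 in Ing1 KO, 197, 187 and 195 in Gadd45a KO, and 155, 153 and 166 in DKO. Ing1 KO replicate 1 fell among the DKO libraries. Slc3a2 was called against the WT (log2 fold change -0.24 ± 0.07 SE, adjusted p = 0.0228 by edgeR) and Gadd45a KO (-0.29, adjusted p = 0.00803), and the call against the WT was lost without WT replicate 1 or 2 or DKO replicate 1 or 2 (adjusted p up to 0.0868 over the alternatives run). Slc7a11, the cystine importer, was low, at 11, 9.38 and 10.4 CPM in the WT, 11.6, 15.2 and 10.3 in Ing1 KO, 9.84, 9.61 and 9.85 in Gadd45a KO, and 8.37, 8.97 and 9.01 in DKO. It was called against Ing1 KO alone (log2 fold change -0.5 ± 0.12 SE, adjusted p = 0.0094 by edgeR).

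The enzyme genes differed among themselves. Cth, which makes cysteine from cystathionine, had the most negative log2 fold change of the 36 genes in DKO against the WT. It stood at 14.5, 13.2 and 16.4 CPM in the WT, a mean of 13.7 ± 2 (SD, lowest 11.6) in Ing1 KO, 12.2, 14.1 and 16.7 in Gadd45a KO, and 8.02, 9.03 and 8.46 in DKO. The DKO libraries did not overlap the others, and Cth was 1.73-fold lower than in the WT (log2 fold change -0.79 ± 0.13 SE, adjusted p = 0.00103 by edgeR). Chac1, which breaks down glutathione, stood at 31.4, 34.1 and 31.6 CPM in the WT, 27.5, 33 and 26.8 in Ing1 KO, 31.8, 36.5 and 34.1 in Gadd45a KO, and 25.2, 26.3 and 24.5 in DKO. It was called against the WT (log2 fold change -0.35 ± 0.08 SE, adjusted p = 0.00494 by edgeR) and Gadd45a KO, and its value against Ing1 KO was -0.2 (adjusted p = 0.0772).

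Asns, the asparagine synthetase gene often used as a reading of ATF4 activity, stood at 149, 147 and 150 CPM in the WT, 140, 172 and 173 in Ing1 KO, 166, 151 and 167 in Gadd45a KO, and 126, 131 and 136 in DKO. DKO lay below all others, but Asns was not called against the WT (log2 fold change -0.18 ± 0.07 SE, adjusted p = 0.073 by edgeR) unless only these groups were fitted (adjusted p = 0.0105). It was called lower against Ing1 KO (-0.3, adjusted p = 0.00825) and Gadd45a KO (-0.3, adjusted p = 0.00763). The proline synthesis genes Aldh18a1 and Pycr1 and the alanine transaminase gene Gpt2 were called in no comparison. Aldh18a1 kept to between 185 and 203 CPM and Gpt2 to between 59.3 and 64.7 CPM over the 12 libraries, and Pycr1 ran from 40.7 to 53.4 CPM.

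The 5 serine and one-carbon enzymes had their highest group means in Ing1 KO, and edgeR's test called none between DKO and the WT. Slc7a11, Eif4ebp1 and Aldh18a1 of the same arm shared both traits. Phgdh, Psat1 and Psph make serine from a glycolysis intermediate, and Shmt2 and Mthfd2 pass its carbon to folate in mitochondria. Shmt2 stood at 104, 90.7 and 88.7 CPM in the WT, 115, 141 and 122 in Ing1 KO, 108, 104 and 108 in Gadd45a KO, and 93.5, 92.4 and 92.9 in DKO. All Ing1 KO libraries were above all others, and Shmt2 rose against the WT (log2 fold change 0.41 ± 0.07 SE, adjusted p = 0.00162 by edgeR). Psat1 stood at 186, 176 and 194 CPM in the WT, 220, 273 and 226 in Ing1 KO, 195, 184 and 208 in Gadd45a KO, and 168, 183 and 181 in DKO. It was likewise above all others in each Ing1 KO library, with a log2 fold change of 0.37 ± 0.08 (SE, adjusted p = 0.0048 by edgeR).

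Mthfd2 stood at 99.3, 93.4 and 102 CPM in the WT, 102, 123 and 110 in Ing1 KO, 101, 104 and 107 in Gadd45a KO, and 85.1, 89.8 and 90.1 in DKO. Its call in Ing1 KO against the WT (log2 fold change 0.18 ± 0.06 SE, adjusted p = 0.0449 by edgeR) was lost without any 1 of the 3 WT libraries and without Ing1 KO replicate 2 or 3 (adjusted p up to 0.215 over the alternatives run). Phgdh had a wide spread, at 63.3, 54 and 52.8 CPM in the WT, 58.4, 85 and 71.2 in Ing1 KO, 71.5, 56.2 and 66.3 in Gadd45a KO, and 43.3, 44.1 and 44.9 in DKO. DKO lay below all other libraries, yet its log2 fold change against the WT of -0.36 ± 0.13 (SE) was not called by edgeR (adjusted p = 0.0701), while DESeq2 called it (adjusted p = 0.014). With only these groups in the fit, Phgdh and Mthfd2 were both called lower in DKO than in the WT (edgeR adjusted p = 0.00108 and 0.0346). Psph stood between 28.1 and 28.5 CPM in the WT, 25.6 and 34.9 in Ing1 KO, 28.9 and 31.8 in Gadd45a KO, and 23.1 and 26.5 in DKO. It shares 452 exon bases with Cct6a on the opposite strand, and Shmt2 shares 32 with Ndufa4l2.

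Against Ing1 KO, all 5 of these enzymes were lower in DKO, between -0.27 (Psph, edgeR adjusted p = 0.0481) and -0.7 (Phgdh, adjusted p = 0.00421) on the log2 scale. The call for Psph was lost without Ing1 KO replicate 2 or 3 or any 1 DKO library (adjusted p up to 0.218 over the alternatives run). Over the whole ATF4 arm, 14 of 22 genes were lower in DKO than in Ing1 KO and 1 was higher (median -0.32), where 9.88% of all genes tested were called lower and 14.9% higher. Against Gadd45a KO, 13 were lower and 1 higher (median -0.27), with 10.6% of all genes called lower and 15.8% higher. In the latter comparison the call of Mthfd2 (log2 fold change -0.24, adjusted p = 0.0126 by edgeR) was lost without Gadd45a KO replicate 3 or DKO replicate 1 (adjusted p up to 0.0582 over the alternatives run). These comparisons share the DKO libraries with that against the WT and are not independent of it. Atf5, Ddit3, Trib3, Nupr1, Slc7a5, Slc7a1 and Cth of the ATF4 arm, and Herpud1 of the ER arm, were called lower in all 3 comparisons. Atf3, Sdf2l1 and Edem1 were called higher in all 3. How many of all genes tested were called the same way in all 3 was not counted, so this listing has no background beside it. Against Ing1 KO the calls of Sdf2l1 and Edem1 were lost without Ing1 KO replicate 1 and some other single libraries (DKO replicate 2 or 3 for Sdf2l1; Ing1 KO replicate 2 or DKO replicate 1 or 2 for Edem1), with adjusted p up to 0.0751 and 0.103 over the alternatives run.

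Ing1 KO alone, compared with the WT, asked what loss of Ing1 did with Gadd45a as in the WT. Of 22 ATF4 arm genes 4 rose (Shmt2, Psat1, Eif4ebp1 and Mthfd2) and the other 18 were not called, with a median log2 fold change of 0.08. Of all genes tested, 12.1% were called higher and 11.4% lower. Eif4ebp1, which encodes an inhibitor of cap-dependent translation, stood at 107, 97.1 and 96.9 CPM in the WT, 110, 131 and 117 in Ing1 KO, 113, 109 and 110 in Gadd45a KO, and 107, 108 and 108 in DKO. The Ing1 KO and WT libraries did not overlap (log2 fold change 0.24 ± 0.06 SE, adjusted p = 0.00988 by edgeR), and its call was lost when only these groups were fitted (adjusted p = 0.0518).

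The spread of the ATF4 arm was widest in Ing1 KO, with mean log2 levels of -0.07, 0.2 and 0.07 against the WT mean in replicates 1 to 3. Replicate 1 was the lowest of its group for Ddit3, Trib3, Atf5, Asns, Slc7a5, Slc3a2 and Phgdh. Without it, 8 ATF4 arm genes were called against the WT in place of 4, all of them higher. The number of all genes called was then 3548 in place of 3543. In the ER arm, Dnajb9, a cochaperone gene of BiP, was the only one of 14 called against the WT, with 41.9, 39.9 and 47.1 CPM in WT libraries against 38.7, 37.3 and 36.3 in Ing1 KO (log2 fold change -0.2 ± 0.06 SE, adjusted p = 0.0352 by edgeR). That call was lost without WT replicate 3 or Ing1 KO replicate 2 or 3 (adjusted p up to 0.141 over the alternatives run).

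Between the libraries labelled Gadd45a KO and the WT, 0 members of either arm were called by edgeR or by DESeq2. At an unadjusted p under 0.05, 3 ATF4 arm genes (Atf5, Shmt2 and Eif4ebp1, all higher) and 0 ER arm genes passed. A single gene of the 15098 (0.00662%) was called either way, Gadd45a itself, and 1331 had an unadjusted p under 0.05, while DESeq2 called 27. Of the 22 ATF4 arm genes, 19 had a positive log2 fold change (median 0.08), from -0.07 for Slc7a11 to 0.3 for Atf5 (adjusted p = 0.516 by edgeR). The median of all genes tested was 0.003, and their share with a positive sign was not counted. These signs come from the same libraries and are not independent of each other. The ER arm had a median of -0.01 and ran from -0.07 to 0.09. Among the Gadd45a KO libraries, replicate 1 had the lowest macrophage marker sum, at 141 CPM against 554 and 541. The ATF4 arm levels of these libraries were 0.09, 0.06 and 0.12, and their ER arm levels were -0.11, 0.04 and 0.04.

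The 2 Ing1 contrasts, without and with the labelled loss of Gadd45a, were compared by the interaction, the log2 fold change of DKO over Gadd45a KO less that of Ing1 KO over WT. It uses no library on both sides. In the ATF4 arm 13 of 22 genes had a negative interaction and 1 a positive one (median -0.42), where 7.4% of all genes tested were called negative and 10.4% positive. For Atf5 the Ing1 contrast was 0.09 in the first background and -0.86 in the second (interaction -0.94 ± 0.15 SE, adjusted p = 0.00343 by edgeR). For Shmt2 it was 0.41 and -0.2 (interaction -0.61 ± 0.1, adjusted p = 0.00314), and for Nupr1 0.1 and -0.39 (interaction -0.49 ± 0.08, adjusted p = 0.00265). Of the serine and one-carbon enzymes 4 of 5 were called, Psph being the other (adjusted p = 0.0823). The ER arm had 1 negative (Herpud1) and 1 positive call (Hsp90b1) of 14, with a median of 0.11. Both ER calls were lost without any 1 of several libraries, WT replicate 2 and DKO replicate 1 among them. Without 1 library, the ER arm count ran from 0 (without WT replicate 2) to 3 (without WT replicate 1), and of the ATF4 arm calls those of Eif4ebp1 and Cth were lost under some alternatives (adjusted p up to 0.0895 and 0.0736 over the alternatives run).

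**Figure D4:**
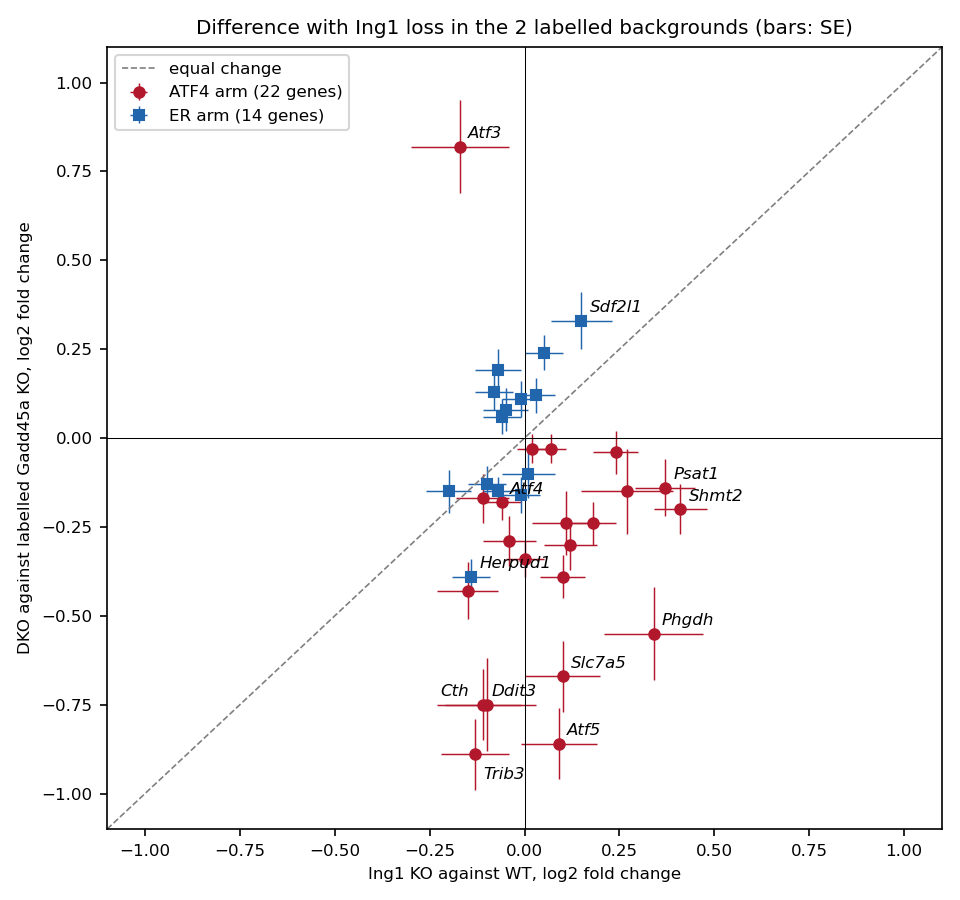
Each point is a gene; the axes give its log2 fold change in Ing1 KO against WT (x) and in DKO against labelled Gadd45a KO (y), with SE bars, and the dashed line marks equal change. Most ATF4 arm genes lie below the line, such as Atf5 (0.09 and -0.86) and Shmt2 (0.41 and -0.2), and Atf3 lies far above it.

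In the ER arm the abundant chaperones differed little between groups. Hspa5, the main chaperone of the ER lumen and a standard reading of unfolded protein stress, stood at 1298, 1311 and 1421 CPM in the WT, 1232, 1294 and 1239 in Ing1 KO, 1241, 1370 and 1413 in Gadd45a KO, and 1208, 1233 and 1225 in DKO. The DKO libraries were below those of the WT by a small step that was not called by edgeR (log2 fold change -0.14 ± 0.05 SE, adjusted p = 0.0792) and was called by DESeq2 (adjusted p = 0.0455). Calr, Pdia6, Creld2, Manf (a secreted stress factor) and Xbp1 were called in no comparison either. Over the 12 libraries Calr ran from 1389 to 1635 CPM, Pdia6 from 571 to 676, Creld2 from 43.9 to 53.9 and Manf from 140 to 171. Xbp1, whose spliced RNA encodes the factor that raises ER genes, stood at 154, 155 and 158 CPM in the WT, 157, 155 and 152 in Ing1 KO, 142, 164 and 160 in Gadd45a KO, and 173, 165 and 163 in DKO. Gene counts do not separate its spliced from its unspliced RNA. Its log2 fold change in DKO against the WT was 0.1 ± 0.05 (SE, adjusted p = 0.165 by edgeR).

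Hsp90b1 stood at 1141, 1248 and 1335 CPM in the WT, 1213, 1165 and 1163 in Ing1 KO, 1106, 1229 and 1218 in Gadd45a KO, and 1334, 1330 and 1387 in DKO. It was called higher in DKO against Ing1 KO and Gadd45a KO (0.19 ± 0.06 in each, edgeR adjusted p = 0.0284 and 0.0299), and both calls were lost without any 1 DKO library. The former was also lost without Ing1 KO replicate 2 or 3, and the latter without Gadd45a KO replicate 1 (adjusted p up to 0.0926 and 0.132 over the alternatives run). The DKO mean of Hspa5 lay below and that of Hsp90b1 above the WT mean, neither called, and the windows of both hold the ER stress element printed above. Pdia4, a disulfide isomerase gene, was called against Ing1 KO alone (0.17 ± 0.05, edgeR adjusted p = 0.0397), with 454, 448 and 471 CPM in DKO and 427, 389 and 407 in Ing1 KO, and that call was lost under 8 of 11 alternatives. Hyou1, a chaperone that exchanges the nucleotide of BiP, was called lower against Gadd45a KO alone (-0.16 ± 0.05, adjusted p = 0.0245), with 238, 232 and 237 CPM in DKO and 246, 270 and 272 in Gadd45a KO. It too was lost without DKO replicate 1 or 2 or Gadd45a KO replicate 2 or 3 (adjusted p up to 0.103 over the alternatives run). Exons of Pdia6, Manf and Dnajb9 overlap another gene on the opposite strand, and those of Hsp90b1 and Pdia4 a small RNA gene on their own strand.

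The degradation factors moved apart from each other in DKO. Herpud1, which helps assemble the ER degradation complex, stood at 102, 94.5 and 96.9 CPM in the WT, 84.1, 94.4 and 86.9 in Ing1 KO, 96.7, 102 and 98.4 in Gadd45a KO, and 75.9, 73 and 77.8 in DKO. DKO was below every other library, 1.29-fold lower than the WT (log2 fold change -0.37 ± 0.05 SE, adjusted p = 0.000255 by edgeR). Its printed window is the one with both a C/EBP-ATF element and an ER stress element II. Among the ATF4 arm genes with a C/EBP-ATF element, Chac1, Nupr1 and Trib3 were called lower in DKO against the WT. Atf3 was called higher, and Asns, Pycr1 and Slc7a11 were not called. Any part of the elements in these changes was not tested. Edem1, which hands misfolded glycoproteins to degradation, rose: it stood at 185, 190 and 205 CPM in the WT, 190, 195 and 214 in Ing1 KO, 185, 191 and 198 in Gadd45a KO, and 227, 230 and 220 in DKO. It was above every other library in DKO (log2 fold change against the WT 0.22 ± 0.05 SE, adjusted p = 0.00729 by edgeR).

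Sel1l, the scaffold of the degradation complex, stood at 306, 301 and 304 CPM in the WT, 276, 289 and 305 in Ing1 KO, 306, 295 and 307 in Gadd45a KO, and 262, 277 and 277 in DKO. It was called against the WT (-0.16 ± 0.04, edgeR adjusted p = 0.0155) and Gadd45a KO, and the former call was lost without DKO replicate 1 (adjusted p = 0.0722). The latter (-0.15, adjusted p = 0.0185) was lost without Gadd45a KO replicate 1 or 3 or DKO replicate 1 (adjusted p up to 0.0841 over the alternatives run). Sdf2l1, a BiP cofactor, was the member of the ER arm that rose most. It stood at 15.1, 15.7 and 15.6 CPM in the WT, 16, 18 and 17.5 in Ing1 KO, 14.3, 17.5 and 17.5 in Gadd45a KO, and 19.9, 20.9 and 21.3 in DKO. All DKO libraries were above the others, at 1.34-fold the WT (log2 fold change 0.42 ± 0.08 SE, adjusted p = 0.00188 by edgeR). Dnajb9 was lower in DKO, at 37.7, 37.7 and 35.4 CPM (log2 fold change against the WT -0.22 ± 0.06 SE, adjusted p = 0.0211 by edgeR), lost without WT replicate 3 or DKO replicate 3 (adjusted p up to 0.0827 over the alternatives run). Against Ing1 KO, 4 ER arm genes were higher and 1 lower in DKO (28.6% and 7.14%, beside 14.9% and 9.88% of all genes, median 0.07). Without 1 library that total of 5 fell to between 1 and 3. Against Gadd45a KO, 3 were higher and 3 lower (21.4% each, beside 15.8% and 10.6%, median 0.07).

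**Figure D5:**
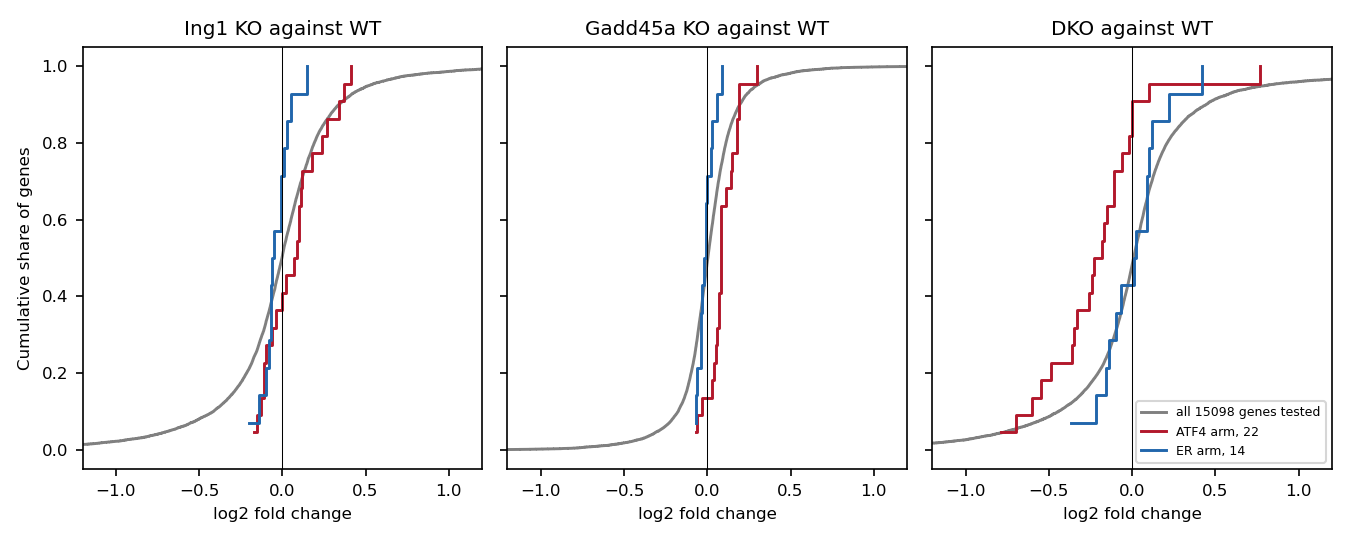
Cumulative share of genes (y) by log2 fold change (x) in 3 comparisons with the WT, for all 15098 genes tested (grey), the 22 ATF4 arm genes (red) and the 14 ER arm genes (blue). In DKO the red line lies left of the grey one (median -0.21 against 0.01), and the blue line crosses it (median 0.02).

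Other genes of the same pathways were read from lists that hold no member. Among 22 further ATF4-type genes, 5 fell and 2 rose in DKO against the WT (median -0.13), that is 22.7% lower and 9.09% higher, beside 10.3% and 15.6% of all genes tested. Against Ing1 KO 8 fell and 3 rose (median -0.2), that is 36.4% and 13.6% beside 9.88% and 14.9% of all genes. Against Gadd45a KO 9 fell (40.9%, beside 10.6% of all genes) and the other 13 were not called (median -0.23). Fgf21, a stress hormone gene, stood at 5.39, 5.69 and 4.69 CPM in the WT, 2.38, 2.7 and 2.64 in Ing1 KO, 4.84, 5.04 and 4.84 in Gadd45a KO, and 1.81, 2.21 and 2.07 in DKO. Unlike any ATF4 arm member it was called lower in Ing1 KO against the WT as well (-1.03 ± 0.12, edgeR adjusted p = 0.000173). Of 20 cytosolic tRNA synthetase genes, which charge tRNAs with amino acids, 9 rose in Ing1 KO against the WT (45%, beside 12.1% of all genes) and the other 11 were not called (median 0.15). In DKO, 13 of them fell against Ing1 KO (65%, beside 9.88% of all genes, median -0.21). Against the WT 1 rose and 3 fell (5% and 15%, beside 15.6% and 10.3%, median -0.01). Aars stood at 407, 365 and 361 CPM in the WT, 378, 470 and 444 in Ing1 KO, 432, 384 and 426 in Gadd45a KO, and 313, 311 and 329 in DKO.

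Upstream of both arms, 21 genes for stress sensors and eIF2 control were mostly not called. In DKO against the WT 1 was higher and 2 lower (4.76% and 9.52%), under the 15.6% and 10.3% of all genes. Eif2ak4 (GCN2), the sensor of uncharged tRNA, was 0.27 ± 0.05 higher on the log2 scale (edgeR adjusted p = 0.00143), and Impact, an inhibitor of GCN2 activation, was 0.38 lower (log2 fold change -0.38 ± 0.05, adjusted p = 0.00027). In Ing1 KO against the WT 4 were higher and 2 lower (19% and 9.52%, beside 12.1% and 11.4% of all genes). Eif2b2, a subunit of the eIF2 exchange factor, rose in that comparison (0.39 ± 0.07, edgeR adjusted p = 0.00216), and Eif2ak2 (PKR), the sensor of double-stranded RNA, fell (-0.42 ± 0.07, adjusted p = 0.00109). Among 22 further ER genes, 5 rose and 1 fell in DKO against the WT (22.7% and 4.55%, beside 15.6% and 10.3% of all genes, median 0.09). Against Gadd45a KO 9 rose and 1 fell (40.9% and 4.55%, beside 15.8% and 10.6%, median 0.1). Ero1lb, an ER oxidase gene, rose in DKO to 9.2, 8.78 and 8.19 CPM from 5.63, 5.51 and 6.19 in the WT (0.59 ± 0.12, adjusted p = 0.00242). Of 13 cytosolic and mitochondrial heat shock genes, 7 rose in Ing1 KO against the WT and the other 6 were not called (53.8% higher, beside 12.1% of all genes, median 0.17). In DKO against the WT 1 rose and 2 fell (7.69% and 15.4%, beside 15.6% and 10.3%).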

How the data were processed

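RNA of 12 libraries was read for 51 cycles from 1 end after a polyA kit that does not mark strand, per the labels' protocols. The authors deposited raw counts per gene and library; per the submitters' processing notes these came from TopHat2 2.0.9, Bowtie2 2.1.0 and HTSeq 0.5.4 on mm9. The strand setting of HTSeq is not stated there. Between 23.89% and 24.91% of listed reads went to no gene and were left out. Within groups, libraries differed more than by counting error (chi-square of 5.65 to 34.04 for each degree of freedom).

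Symbols, exon lengths and overlaps came from GENCODE vM21, another build, so no gene coordinates of the counts are given. Tests used edgeR 4.0.16 in R 4.3.3 (TMM, filterByExpr with a minimum count of 10, robust quasi-likelihood, 1 model of 4 groups, 8 residual degrees of freedom, two-sided, Benjamini-Hochberg over 15098 genes); the script was tested on simulated data. CPM divide counts by TMM-scaled totals; for arm levels, 2 was added as the prior count before taking log2. DESeq2 1.42.0 and 5 further kinds of alternative were run. All members may be named, and from other lists up to 4 called genes with the smallest adjusted p. Same-numbered libraries of WT and Gadd45a KO correlated in their deviations from group means (r of 0.11 to 0.34), which no other groups did throughout. Their differently numbered replicates 2 and 3 correlated as much (0.11 and 0.13). The values thus set replicate 1 apart and do not show a pairing by number, and the labels name none. The members, lists and tests were chosen with earlier results of these data known.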

Additional observations from a re-analysis of the deposited data

Results flagged for a closer look

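For 16 of the 36 genes the log2 change between Ing1-lacking and Ing1-carrying libraries differed between the 2 labelled Gadd45a backgrounds. By edgeR's test of the interaction (adjusted p under 0.05), 14 values were negative (38.9%) and 2 positive (5.56%). Of all genes tested, 7.4% were called negative and 10.4% positive. The negative values were -0.94 for Atf5, -0.89 for Phgdh, -0.77 for Slc7a5, -0.76 for Trib3, -0.66 for Cth, -0.64 for Ddit3, -0.61 for Shmt2 and -0.51 for Psat1. Smaller ones were -0.49 for Nupr1, -0.42 for Mthfd2, -0.41 for Asns, -0.35 for Slc7a1, -0.28 for Eif4ebp1 and -0.25 for Herpud1. The positive values were 0.99 for Atf3 and 0.26 for Hsp90b1. The calls for Eif4ebp1, Cth, Hsp90b1 and Herpud1 were each lost without 1 of several libraries (highest adjusted p = 0.0895, 0.0736, 0.101 and 0.0824). All rest on the labels of the Gadd45a groups, whose Gadd45a counts were higher than in the WT.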

How the results depend on the processing

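Of 216 values (36 genes in 6 comparisons), 76 were called; 56 of these calls held under every alternative run, 20 were lost under at least 1, and 27 uncalled values were called under at least 1. No call was reversed. With only the groups compared in the fit, Ing1 KO against WT called 2 ATF4 arm genes in place of 4 and 0 ER arm genes in place of 1, DKO against Ing1 KO called 3 ER arm genes in place of 5, and Gadd45a KO against WT called 0 genes in place of 1, where DESeq2 called 27. The ER arm interaction called 1 gene in place of 2 with RLE normalization and 1 with no filter on low counts. Deviations of same-numbered libraries correlated between -0.18 and 0.34 (median 0.01, 18 pairs), and in 5 of the 6 pairs of groups not every such correlation was over 0.1. WT and Gadd45a KO were the exception, but their differently numbered replicates 2 and 3 correlated as much as the same-numbered ones (0.11 and 0.13). Over all groups, 4 of 18 same-numbered and 7 of 36 differently numbered pairs were over 0.1. In Gadd45a KO against WT the block left 0 members and 1 gene called, as without it. With the replicate number as a block, the ER arm count in Ing1 KO against WT was 0 in place of 1. The block also ended the calls of Dnajb9 there (adjusted p = 0.0532), of Psph in DKO against Ing1 KO (0.0645) and of Eif4ebp1 in the interaction (0.0505), and added Chac1 in both of the latter (0.0239 and 0.0338). Leaving out each library in turn, the ATF4 arm counts ran from 3 to 8 (Ing1 KO against WT), 9 to 10 (DKO against WT), 14 to 17 (DKO against Ing1 KO), 12 to 14 (DKO against Gadd45a KO) and 12 to 16 (interaction). The ER arm counts ran from 0 to 1, 4 to 5, 1 to 3, 3 to 6 and 0 to 3, and all genes called from 1858 to 3548, 2754 to 3536, 2249 to 3676, 2679 to 3404 and 1300 to 3285, in the same order. Gadd45a KO against WT called 1 to 13 genes. In DKO against WT, Hspa5 and Phgdh were called by DESeq2 (adjusted p = 0.0455 and 0.014) and not by edgeR.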
